A study of Mus musculus with 6 samples.

Results

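The interleukin-1 (IL-1) family was followed here through 9 genes: the cytokine genes Il1a, Il1b, Il18 and Il33, the receptor antagonist gene Il1rn, and the receptor genes Il1r1, Il1r2, Il1rap and Il1rl1. They were found by matching the RefSeq transcripts of the authors' expression table to mouse gene symbols, and each gene was represented by its transcript with the highest base mean, the authors' mean normalized count. The 9 genes are among 25112 named genes in the table and have 24 of its 42885 transcripts. RNA sequencing had compared wild type C57BL/6 primary epidermal keratinocytes from pups of postnatal day 1 to 3, kept at 0.05 mM calcium and collected 48 h after transfection. The 2 groups, of 3 libraries each, received miR-Control or pro-miR-148a at 200 nM. The labels do not say whether the libraries came from separate cultures or animals, so the p-values may measure technical spread only. The titles of 2 of the miR-148a libraries carry the same index beside different replicate numbers, and those of the controls do not. Low calcium keeps these cells close to the basal, dividing state, so cytokines made by differentiated layers are sampled in a culture that favours undifferentiated cells.

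IL-1 alpha and IL-1 beta signal through the receptor Il1r1, which recruits the shared co-receptor Il1rap and then MyD88, IRAK kinases and NF-kB. Keratinocytes are known to store IL-1 alpha and IL-33, which act as alarm signals when cells are damaged, whereas IL-1 beta and IL-18 need cleavage by an inflammasome before they act. Il1rn blocks the receptor, Il1r2 is a decoy that binds IL-1 without signalling, and Il1rl1 (ST2) is the receptor of IL-33 and also uses Il1rap.

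The values available are the authors' own comparison, with 1 log2 fold change, its standard error (SE) and an adjusted p-value per transcript. The table used here has no column per library, so the level of a gene in each library, its replicate spread and the library depths are unknown. The base means of the whole table add up to 2.65e+07. Which group is the numerator of these fold changes is not named in the file. The 1564 tested genes whose longest 3' untranslated region (UTR) holds a 7mer-m8 or 8mer site for miR-148a had a median of 0.07 as deposited, against -0.01 for the 8318 tested genes without one. MicroRNAs lower transcripts that carry their sites, so the deposited values are read as control over miR-148a and every sign below is turned: a negative log2 fold change is lower with miR-148a. If that reading were wrong, every direction given here would be the opposite. At an adjusted p under 0.05, 21.8% of the genes with a site were then lower and 14.5% higher. Of the genes without one, 16.7% were lower and 18.5% higher. Rock1, a known target of miR-148a, then stood at -0.26 ± 0.09 SE in the authors' deposited table. Its longest 3' UTR holds a 7mer-m8 site, so it is among the genes used to read the sign and is no separate check of it.

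The sequences below show which members could pair with the transfected microRNA through its seed, bases 2 to 8. They are the mature miR-148a-3p (RefSeq, GRCm38.p6), with the seed in capitals, and 25-base windows of the 3' UTRs (GENCODE M21), 5′ to 3′ in the sense of the transcript, with the bases that match the site in capitals.
mmu-miR-148a-3p: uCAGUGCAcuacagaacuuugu
Il1b, NM_008361, 7mer-A1 site: gaattggtcatagcccGCACTGAgg
Il33, NM_133775 and NM_001164724, 7mer-m8 site: tccactgtctttacccTGCACTGca
Il1rl1, NM_010743, 7mer-m8 site: ttggctgaatcagctgTGCACTGca
Il1rl1, NM_010743, 6mer: ggtgactgtggaccacaGCACTGtg

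The motifs searched, on the transcript's strand, were TGCACTGA (8mer), TGCACTG (7mer-m8), GCACTGA (7mer-A1) and GCACTG (6mer), which lie within one another, and a UTR was placed in the first class that it held. Of the longest 3' UTRs of 21072 genes, 3.91% held an 8mer, 9.88% a 7mer-m8, 6.67% a 7mer-A1 and 14.6% a 6mer alone. Il1a, Il1rap, Il1r1, Il1r2, Il1rn and Il18 held none of these motifs in any 3' UTR that GENCODE M21 gives them. In Il1b the match starts at base 325 of a UTR of 459 bases, counted from 1 at the UTR's first base. In Il33 it starts at base 1105, in UTRs of 1677 and 1663 bases. In Il1rl1 the matches, at bases 22 and 1118 of 1444, belong to the transcript of the soluble receptor (NM_010743), and the transcript of the membrane receptor (NM_001025602), with a different UTR of 3246 bases, held none. A match is a description of letters and not a binding site, and no match says only that these letters are not in these UTRs.

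Il1a and Il1rap, the members with the highest base means, were both lower with miR-148a and neither carried a match to the seed. Of the 9 genes, 5 had an adjusted p and are counted as tested. Of these 5, 3 (60%) passed the authors' test at an adjusted p under 0.05, all of them lower with miR-148a (Il1a, Il1rap and Il1rl1). Il1b and Il1r1 did not pass, and 4 genes had no adjusted p: Il1rn and Il1r2, with base means under 3.56, the lowest that has one, and Il18 and Il33, at 0. Of all 11038 tested genes 33.5% passed: 16.8% were lower and 16.7% higher with miR-148a (13.0% were lower at a stricter threshold of 0.01). The share that passed rose with the level: 7.71% of tested genes with a base mean under 100 were called lower and 3.27% higher, 22.4% and 19.7% at base means of 100 to 1000, and 24.2% and 31.7% at 1000 or more. In these bulk libraries fewer cells of a type and less RNA per cell cannot be told apart.

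Among the ligands, Il1a, the gene of the stored alarm cytokine IL-1 alpha, was listed in the authors' deposited table at a base mean of 855, above 65.3% of the tested genes. With miR-148a it fell 1.59-fold, with a 95% interval from the SE of 1.36 to 1.86 (log2 -0.67 ± 0.12 SE; adjusted p = 6.78e-08 by the authors' deposited table). With groups of equal size, that base mean and fold correspond to mean normalized counts of about 1049 in the control and 660 in the miR-148a libraries. Its fold change was lower than that of all but 9.62% of the tested genes.

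Il1b, the gene of IL-1 beta, was a much weaker transcript, listed in the authors' deposited table at a base mean of 19.0. Both genes are listed by a single transcript, so their levels can be set side by side per length: 433 per kilobase of transcript for Il1a and 14.0 for Il1b, a ratio of 30.9. The authors' deposited table gives Il1b a log2 fold change of -0.87 ± 0.39 SE, numerically larger than that of Il1a, and did not pass (p = 0.0258 before and 0.0750 after adjustment). Its 95% interval, -1.63 to -0.10, contains the value of Il1a. The SE of Il1b lies close to the largest in the table, 0.393, a ceiling reached by weakly counted transcripts and typical of a fit that pulls their fold changes toward 0. Still weaker rows had smaller SEs, such as 0.30 for Il1rn at a base mean of 2.75 and 0.26 for Il1r2 at 1.94. The narrower intervals of such rows are not to be read as a better measurement.

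Il18 and Il33, genes of cytokines that epidermal cells are known to make, were each listed by 3 transcripts, all at 0 in the authors' deposited table. Il1rn, the receptor antagonist gene, was listed in the authors' deposited table at base means of 2.75 (NM_031167), 0.997 (NM_001159562) and 0 (NM_001039701). Of these, NM_031167 has a coding length of 477 bases and matches the intracellular form of the antagonist, and NM_001039701, with 534, the secreted one. For NM_031167 the authors' deposited table gives a log2 fold change of 0.25 ± 0.30 SE, with an interval of -0.34 to 0.83 and no adjusted p. No ratio of antagonist to cytokine can be drawn from these rows, since values at or near 0 in genes with several transcripts are not a measure of absence.

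**Figure D1:**
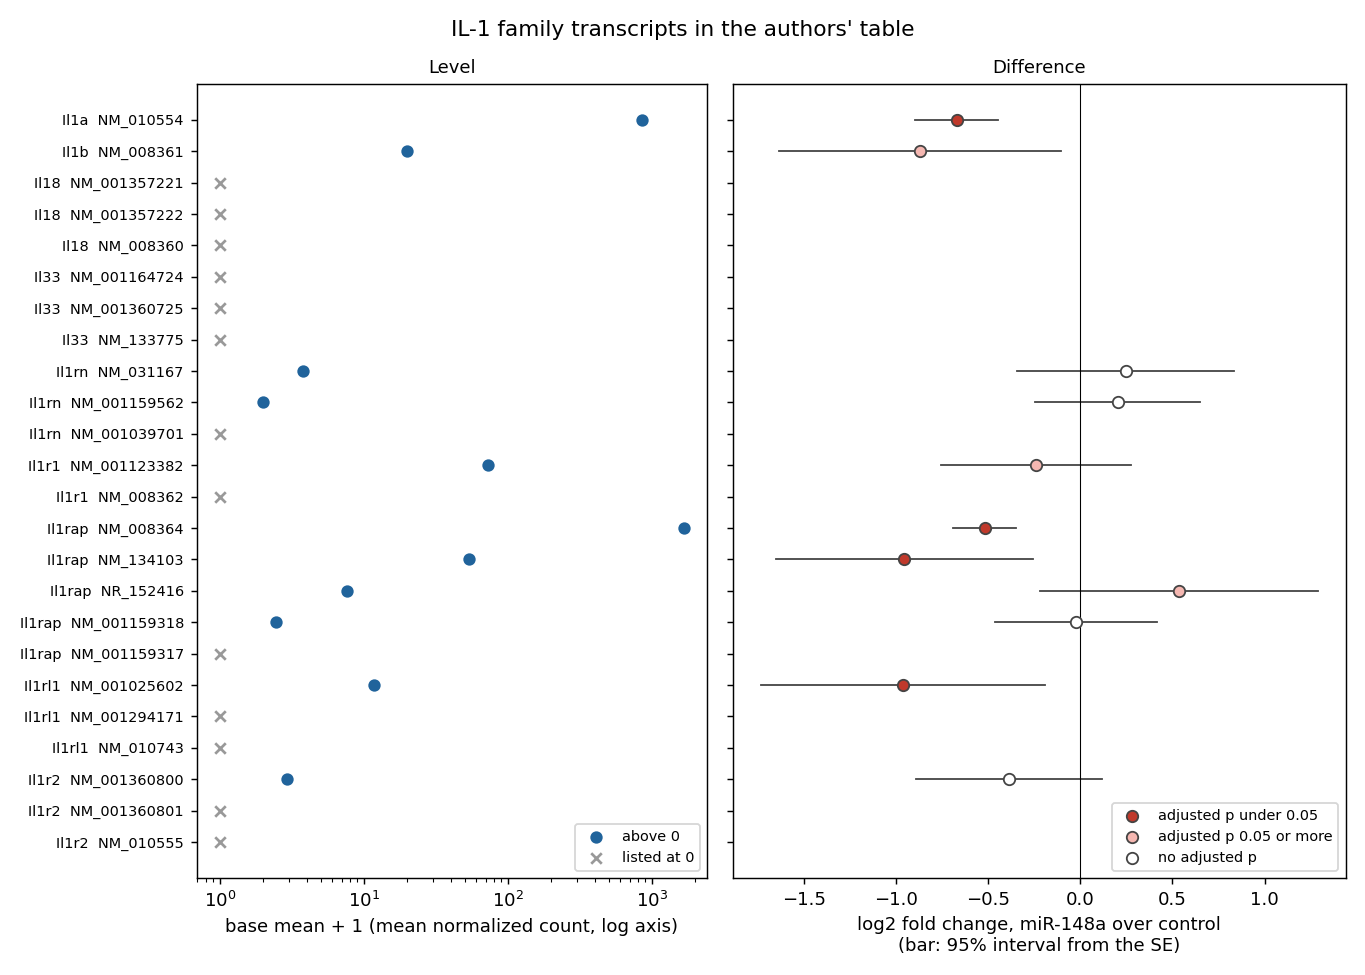
Every listed transcript of the 9 genes. Left, base mean plus 1 on a log axis, with crosses for transcripts listed at 0; right, the authors' log2 fold change, turned to miR-148a over control, with a 95% interval from the SE and the fill showing the authors' adjusted p. The 2 transcripts with base means of 855 (Il1a) and 1661 (Il1rap, NM_008364) have the narrowest intervals among the rows that passed, both below 0, and 13 of 24 transcripts are listed at 0.

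On the receptor side the shared co-receptor gene Il1rap had the highest base mean of the 9 genes. Per kilobase of transcript its main row stood at 368 by the authors' deposited table, under the 433 of Il1a. Its main transcript NM_008364, which has a coding length of 1710 bases and encodes the membrane form, was listed in the authors' deposited table at a base mean of 1661. It fell 1.43-fold with miR-148a, with an interval of 1.27 to 1.61 (log2 -0.52 ± 0.09 SE; adjusted p = 3.9e-08 by the authors' deposited table), corresponding to about 1956 in the control and 1366 in the miR-148a libraries. NM_134103, with a shorter coding length of 1080 bases that matches the secreted form, had a base mean of 52.9 and a log2 fold change of -0.95 ± 0.36 SE (adjusted p = 0.0259 by the authors' deposited table). Both transcripts were thus lower, and the interval of NM_134103, -1.65 to -0.26, contains the value of NM_008364. Whether the forms changed by different amounts was not tested. The non-coding transcript NR_152416 (base mean 6.68) stood at 0.53 ± 0.38 SE on the log2 scale and did not pass (adjusted p = 0.327 by the authors' deposited table). NM_001159318, with the longest coding length (2055 bases), had a base mean of 1.47, and NM_001159317 was listed at 0 in the authors' deposited table.

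Il1r1, the gene of the signalling receptor, was read from NM_001123382 at a base mean of 72.1, with NM_008362 listed at 0 in the authors' deposited table. Its log2 fold change was -0.24 ± 0.26 SE and did not pass (adjusted p = 0.565 by the authors' deposited table). The interval, -0.75 to 0.28, contains both no change and the values of Il1a and Il1rap, so these data do not tell whether the receptor moved with its ligand and co-receptor. The decoy receptor gene Il1r2 had a base mean of 1.94 (NM_001360800) and, with no adjusted p in the authors' deposited table, a log2 fold change of -0.39 ± 0.26 SE (interval -0.89 to 0.12). The other Il1r2 transcripts, NM_010555 and NM_001360801, were listed at 0.

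Il1rl1, the gene of the IL-33 receptor, was read from the membrane form NM_001025602, listed in the authors' deposited table at a base mean of only 10.8. It was 1.95-fold lower with miR-148a, with an interval of 1.14 to 3.32 (log2 -0.96 ± 0.39 SE; adjusted p = 0.0461 by the authors' deposited table). This call lies just inside the threshold, and it was lost when the adjustment covered every transcript with a p-value (adjusted p = 0.0700), under which 10.9% of genes were called lower. Of the 3028 tested genes with base means of 5 to 40, 6.57% were called lower and 2.21% higher. The soluble form NM_010743, the one whose UTR holds the seed matches, and NM_001294171 were both at 0 in the authors' deposited table.

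**Figure D2:**
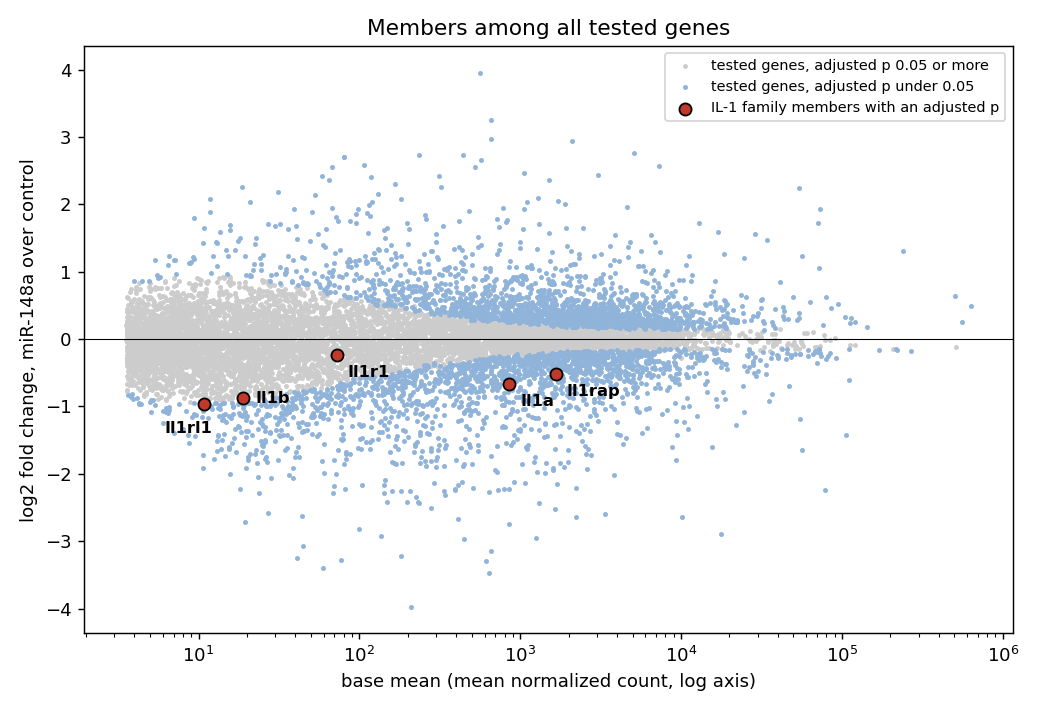
The 5 members with an adjusted p among all 11038 tested genes, 1 point per gene, with base mean on a log axis and the log2 fold change of miR-148a over control. Il1a and Il1rap lie among called genes at base means of 855 and 1661; Il1rl1 and Il1b lie at the edge of the uncalled band at base means of 10.8 and 19.0, and Il1r1 lies within it.

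Of the 22 transcripts of the 7 members listed by several, 13 were at 0, and neither Il1a nor Il1b, with 1 transcript each, was. The matched transcripts of the table show where such zeros occur. Transcripts were matched to GENCODE M21 models, which may differ from the annotation the authors counted on. The exonic bases that no other matched transcript of the gene holds were counted. The shares below cover genes with 2 or more listed transcripts, every one of them matched. Il18, Il33, Il1r2 and Il1rap, each with an unmatched transcript, are thus not in them. Of 2025 transcripts with no base of their own 98.6% were listed at 0, and 77.6% of 2340 with 1 to under 100 such bases. The share was 47.5% of 2874 with 100 to under 500 and 41.8% of 1946 with 500 or more. In genes with 1 listed transcript, where it was matched, the share was 33.9% of 16057. Among the members, the matched Il33 transcripts have 62 and 69 bases of their own, with 1 of the 3 listed transcripts not matched, and NM_001159562 and NM_001039701 of Il1rn have 22 and 151. In Il1rap, whose NR_152416 was not matched and so not compared, NM_001159317 has 0 and was at 0, whereas NM_008364, at 1661, has 3044. The order did not hold everywhere: NM_010743 of Il1rl1 has 1425 and NM_008362 of Il1r1 has 1283 bases of their own, and both were listed at 0. Keratinocyte genes also had transcripts at 0: Krt14 was listed with 2 of 3 transcripts at 0 and a highest base mean of 40.3, and all 8 transcripts of Trp63 were at 0, in the authors' deposited table. The cause of these zeros was not tested.

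**Figure D3:**
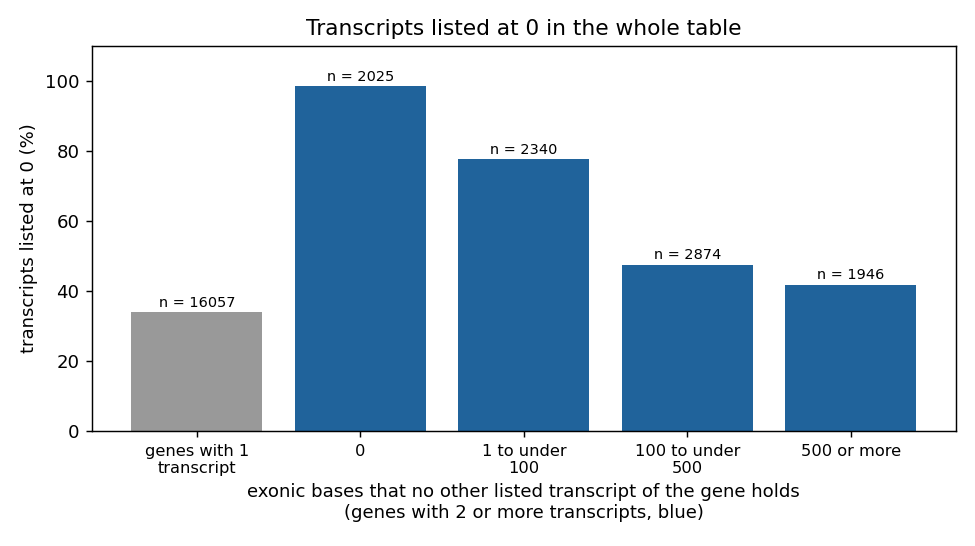
Percentage of matched transcripts listed at 0, by the number of exonic bases that no other listed transcript of the same gene holds (blue, only genes with every listed transcript matched). Grey shows genes with a single listed transcript, also matched, and the number of transcripts stands above each bar. The share at 0 is 98.6% for transcripts with no base of their own and 41.8% for those with 500 or more.

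The other ligands and receptors of the family included the IL-36 cytokines, epidermal relatives of IL-1 that signal through Il1rl2 and the same co-receptor Il1rap. Of 12 genes in this list 8 were tested, 3 were lower (37.5%, beside 16.8% of all tested genes), none was higher and 5 did not pass; the median log2 fold change was -0.28, against -0.01 over all tested genes. In the authors' deposited table Il36b (listed as Il1f8, base mean 486) fell 3.03-fold, or -1.60 ± 0.13 SE on the log2 scale (adjusted p = 3.28e-33). The more abundant Il36g (Il1f9, base mean 4329) fell 1.93-fold (log2 -0.95 ± 0.07 SE; adjusted p = 8.59e-36 by the authors' deposited table), and its longest 3' UTR holds a 7mer-A1 match. That of Il36b holds none of the motifs. Both falls were larger in size than that of Il1a, though the difference between genes was not tested. The third lower gene, Il18rap, a chain of the IL-18 receptor, had a base mean of 10.6 and a log2 fold change of -1.16 ± 0.39 SE (adjusted p = 0.0118 by the authors' deposited table) and is named after its value was seen. Il36a (Il1f6), at a base mean of 87.4, stood at -0.02 ± 0.26 SE on the log2 scale in the authors' deposited table, and all 3 transcripts of Il36rn (Il1f5), the IL-36 receptor antagonist, were at 0, which is no measure of absence. Il1rl2 itself was weakly counted, at a base mean of 3.93, and did not pass (adjusted p = 0.856, authors' deposited table).

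Among the genes that process the cytokines, of 18, 9 were tested, 2 were higher, 2 were lower and 5 did not pass (median -0.21). The shares, 22.2% in each direction, lie near those of all tested genes, 16.7% higher and 16.8% lower. Pycard, the inflammasome adaptor, fell 1.47-fold (-0.56 ± 0.10 SE, base mean 2163) and Gsdmd, the pore protein that releases IL-1 beta, 2.17-fold (-1.12 ± 0.26 SE, base mean 79.8, with an 8mer in its longest 3' UTR, named after its value was seen) in the authors' deposited table. Capn2, a calpain of the protease family that cleaves the IL-1 alpha precursor, rose 1.48-fold (0.56 ± 0.06 SE, base mean 18656), and Nlrp10, an NLR protein of the epidermis, whose longest 3' UTR holds a 7mer-A1 match, rose 3.15-fold (1.65 ± 0.08 SE) in the authors' deposited table. Casp1, the protease that cleaves IL-1 beta and IL-18, had a base mean of 6.79 and did not pass (adjusted p = 0.408, authors' deposited table).

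In the signalling chain from the receptor, 4 of 14 tested genes were lower, none was higher and 10 did not pass, of 26 in the list (median -0.03). The lower share was 28.6%, beside 16.8% of all tested genes, and the share called higher was 0%, beside 16.7%. In the authors' deposited table the ubiquitin ligase gene Peli2, with a 7mer-A1 match, fell 1.57-fold (-0.65 ± 0.11 SE), Ube2n, the ubiquitin-conjugating enzyme that works with TRAF6, 1.48-fold (-0.56 ± 0.06 SE), and Tab2, an adaptor of the kinase TAK1 with a 7mer-m8 match, 1.52-fold (-0.61 ± 0.21 SE). The fourth, Irak3, an inhibitor of the pathway named after its value was seen, had a log2 fold change of -0.73 ± 0.30 SE and an adjusted p of 0.0490 by the authors' deposited table (0.0534 when recentred on the median of all tested genes). Myd88, the adaptor that the receptor pair recruits, stood at -0.04 ± 0.08 SE with a base mean of 1750 and did not pass (adjusted p = 0.740 by the authors' deposited table).

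Of the NF-kB subunits and their inhibitors 9 of 16 were tested, 1 was higher, 1 was lower (11.1% each, beside 16.7% and 16.8% of all tested genes) and 7 did not pass (median -0.14). Nfkbia, the inhibitor of NF-kB that NF-kB itself induces, rose 1.58-fold (0.66 ± 0.06 SE, base mean 4984) and Bcl3, a nuclear co-regulator, fell 1.49-fold (-0.58 ± 0.11 SE) in the authors' deposited table. Nfkb1, a subunit of NF-kB, stood at -0.03 ± 0.07 SE and did not pass (adjusted p = 0.830 by the authors' deposited table). Otulin, with an 8mer in its longest 3' UTR and named after its value was seen, did not pass either. It stood at -0.14 ± 0.08 SE with a base mean of 1441 (adjusted p = 0.202 by the authors' deposited table).

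Of 30 genes known to respond to IL-1 and NF-kB in keratinocytes 22 were tested: 12 were lower (54.5%, beside 16.8% of all tested genes), 3 were higher (13.6%, beside 16.7%) and 7 did not pass. The median was -0.36. Of the 22, 17 had base means of at least 100, where more of all tested genes were called lower (22.4% at 100 to 1000 and 24.2% at 1000 or more). The list was chosen with earlier results of these data known and is no independent evidence of a direction. In the authors' deposited table the collagenase gene Mmp13 fell 15.7-fold (log2 -3.97 ± 0.23 SE, base mean 208) and the lipocalin gene Lcn2 11.1-fold (-3.47 ± 0.16 SE, base mean 638). The stromelysin gene Mmp3 fell 6.38-fold (-2.67 ± 0.31 SE, base mean 409) and the alarmin gene S100a8 6.24-fold (-2.64 ± 0.10 SE, base mean 10198) in that table. Among the chemokines, which were named after their values were seen, Cxcl1 (-0.39 ± 0.14 SE), Cxcl2 (-0.76 ± 0.22 SE) and Ccl2 (-1.53 ± 0.22 SE) were lower and Cxcl5 was higher (1.67 ± 0.31 SE) by the authors' deposited table. The remaining higher genes were Defb14, a defensin gene, and Ptges, a prostaglandin synthase gene. The longest 3' UTRs of Mmp13, Lcn2 and S100a8 held none of the motifs, and that of Mmp3 held a 6mer. Sod2, with a 7mer-m8 match and named after its value was seen, stood at 0.07 ± 0.07 SE with a base mean of 3360. It did not pass (adjusted p = 0.499 by the authors' deposited table).

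**Figure D4:**
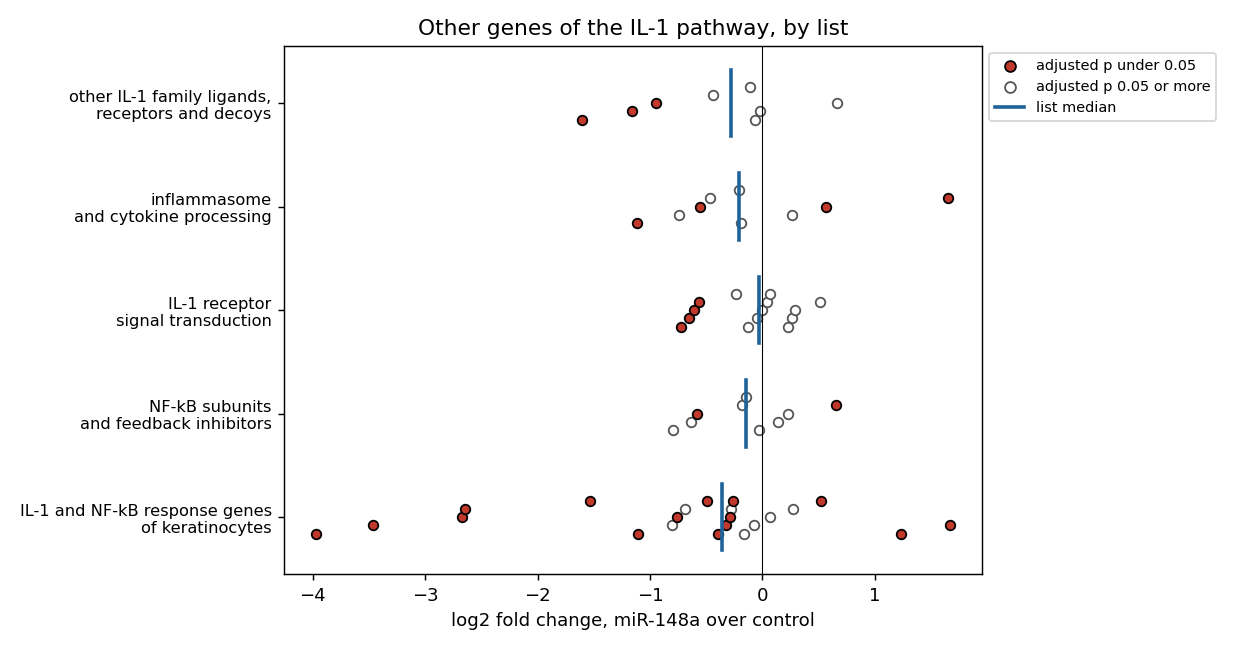
Log2 fold changes, miR-148a over control, of the tested genes of the 5 pathway lists, 1 point per gene, filled where the adjusted p was under 0.05, with a bar at each list's median. The response genes spread from -3.97 (Mmp13) to 1.67 (Cxcl5), and the signal transduction genes lie around a median of -0.03.

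Markers of the labelled cells and of other cells that carry these receptors were read from the same table. Krt5, a basal keratin, had the highest base mean of all tested genes (630448) and was higher with miR-148a (0.49 ± 0.06 SE) in the authors' deposited table. Cdh1 (base mean 36792) and Sfn (84961) were both lower, each at -0.21 ± 0.06 SE, in the authors' deposited table. In the keratinocyte list 7 of 8 were tested: 1 was higher (14.3%, beside 16.7% of all tested genes) and 2 were lower (28.6%, beside 16.8%). The other 4, Krt14, Itga6, Itgb4 and Col17a1, were weakly counted and did not pass. Of the macrophage and Langerhans cell markers, 7 of 12 were tested. Of these, 3 were lower (42.9%, beside 16.8% of all tested genes), 1 was higher (14.3%, beside 16.7%) and 3 did not pass. The lower ones were weakly counted: Lyz2 (-2.63 ± 0.34 SE, base mean 43.8), C1qa (-2.72 ± 0.39 SE, 19.4) and C1qb (-1.07 ± 0.39 SE, 10.6). Csf1r (base mean 188) was higher (0.76 ± 0.20 SE), all by the authors' deposited table. The 3 lower markers had base means under 100, where 7.71% of tested genes were called lower and 3.27% higher. Langerin (Cd207), the defining marker of Langerhans cells, was listed at 0, as were Ptprc, Cd74, Adgre1 and Itgam, each of which has several transcripts. The highest base means of this list add up to 785, with Cd68 (416, which did not pass) and Csf1r as the largest parts. Mast cells carry much Il1rl1, and 6 of the 8 mast cell markers, Cpa3, Mcpt4, Tpsb2, Tpsab1, Fcer1a and Ms4a2, were at 0; Cma1 had a base mean of 14.0 and Hdc of 5.37, with log2 fold changes of -0.93 ± 0.39 SE and -0.30 ± 0.35 SE that did not pass (adjusted p = 0.0550 and 0.584, authors' deposited table). Of the T cell markers only Thy1, which fibroblasts also make, was tested, and it was lower (-0.85 ± 0.12 SE, base mean 549, authors' deposited table). Fibroblasts express Il1r1, Il1rap and Il33. Of 6 tested fibroblast markers 3 were lower (50%, beside 16.8% of all tested genes), none was higher (beside 16.7%) and 3 did not pass. The lower ones were Col3a1 (-0.53 ± 0.08 SE), Col1a2 (-0.43 ± 0.09 SE) and Col1a1 (-0.42 ± 0.10 SE) in the authors' deposited table. All 3 had base means above 1000, and 24.2% of tested genes at 1000 or more were called lower. The fibroblast list's base means add up to 22304. Of the endothelial markers only Vwf was tested, and it was lower (-0.81 ± 0.26 SE, authors' deposited table). The part of these cells in the values of Il1rap, Il1b and Il1rl1 was not tested.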

How the data were processed

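Per the file headers, each RefSeq transcript in the authors' deposited expression table has a base mean (a normalized signal averaged over libraries), a log2 fold change with its SE, a Wald score, and a raw and adjusted p-value. Per the submitters' processing notes the tool DESeq2 and the build mm9 are listed, without roles or versions. An aligner, read counter or annotation was not given in the sources used here. The authors' deposited GO table holds other values: numbers of changed and of all genes per category, with p-values. No counts per library were used here, so no test was run on samples and the authors' adjusted p under 0.05 stands for the test. It equals a Benjamini-Hochberg adjustment over 11757 transcripts to within a relative difference of 0.00885.

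Transcripts were paired with symbols through RefSeq accessions (42739 of 42885 matched, GRCm38.p6 table; IL-36 genes by synonym). A gene is read from its most abundant tested transcript. Builds differ, so no coordinates are given. Lengths and 3' UTRs (at least 20 bases) came from GENCODE M21 (19 of 24 member transcripts matched). Intervals are the log2 fold change ± 1.96 SE. A recentred Wald test and the adjustment were tested on simulated data (Python 3.11.15, scipy 1.17.1). The members and lists were chosen with earlier results of these data known. The rule for names took all members and, per list, up to 4 called genes with the largest change at a base mean of at least 100, or the 2 most abundant where fewer than 2 were called. Other genes were named after their values were seen. Alternatives were recentring, other adjustments, a threshold of 0.01, a base mean of at least 100 and other transcripts.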

Additional observations from a re-analysis of the deposited data

How the results depend on the processing

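The calls of Il1a and Il1rap (NM_008364) held when the fold changes were recentred on the median of all tested genes (a shift of 0.01), when p-values were adjusted over every transcript or over 1 transcript a gene, and at a threshold of 0.01; Il1b and Il1r1 passed under none of these. Il1rl1 (-0.96) no longer passed at a threshold of 0.01 (adjusted p = 0.0461) or when adjusted over every transcript with a p-value (0.0700). With another transcript, Il1rap had 0.53 (NR_152416) or -0.023 (NM_001159318, no adjusted p); the cause was not tested. The lower processing genes went from 2 to 1 at a base mean of at least 100, where fewer genes were tested. At a threshold of 0.01 the lower signalling genes went from 4 to 2 and the lower response genes from 12 to 8. All lower tested genes went from 1856 to 1436 at that threshold. The median difference between genes with and without a site went from -0.08 to -0.12 for an 8mer only, against genes with no site, and was -0.08 (-0.0833) at a base mean of at least 100. No paired analysis was possible because the deposited table has no value per library, and for the same reason no replicate could be left out. The depth of the libraries is unknown; Il1b and Il1rl1, both weakly counted, each had an SE of 0.39.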

Other observations

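The authors' deposited GO table lists 951 categories. In it cytokine activity had 2 changed genes of 11 and cytokine receptor activity 1 of 5 (adjusted p of over-representation 1 for both). The categories named for this family were counted with very few genes: interleukin-1 receptor binding had 0 changed genes of 1, interleukin-33 binding 0 of 1 and interleukin-33 receptor activity 0 of 2 in the authors' deposited table. Il1rap and Il1rl1, the chains of the IL-33 receptor, were both lower by the adjusted p of the expression table, and how changed genes were chosen for the GO table was not given in the sources used here.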
